A study of Mus musculus with 8 samples.

Results

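Wild-type and Med23-/- mouse embryonic fibroblasts were compared after 30 min of serum, on 4 of the 8 arrays of the series. The cells are connective tissue cells from embryos of embryonic day 11, grown in culture until they had passed crisis, the point at which a primary culture gives way to an immortal line. All groups were held for 16 h in 0.5% fetal bovine serum (FBS). The stimulated wild-type (WT) group and the stimulated knockout (KO) group, with both copies of Med23 inactivated, then received 20% FBS for 30 min and had 2 arrays each. The other 4 arrays, 2 of each genotype, came from cells kept in low serum. They enter below through the shared estimate of the spread and where the comparison after serum is set against the same comparison in starved cells. The study looked for genes with a serum response that depends on MED23, with attention to immediate early genes such as Egr1. The labels do not say whether the arrays of a group came from separate cultures, so p-values measure the spread between these samples, which may be technical. They also do not say how many lines stand for each genotype, so loss of MED23 and other differences between the cultures cannot be told apart.

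Mediator is a large complex that carries signals from DNA-bound activators to RNA polymerase II at promoters. MED23 belongs to its tail, the part that contacts activators, and is known to contact ELK1, a ternary complex factor that mitogen-activated kinases phosphorylate and that binds promoters together with serum response factor (SRF). Serum switches on the immediate early genes through this route within minutes, and their protein products, mostly transcription factors, feedback inhibitors and secreted signals, drive the later response.

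Of 22626 probe sets that are not array controls, 14299 (63.2%) were tested, those with a signal no lower than the 40th percentile of the array on 2 or more of the 4 stimulated arrays. They named 8120 genes. The 40th percentile was a signal of 412.6 to 488.3, and the median signal 765.6 to 882.8, on the 4 arrays. Across tested probe sets the replicate arrays correlated at r = 0.981 in WT and 0.986 in KO, and arrays of different genotype at 0.778 to 0.791. Values below are the deposited signals, and differences are KO minus WT on the scale of log2(signal + 16), with the standard error (SE) of the limma fit and n = 2 arrays a group. A gene is called when its limma p, adjusted over all tested probe sets by Benjamini-Hochberg, is under 0.05. Lower signals were noisier: the median absolute difference between replicate arrays was 0.219 (log2) in the dimmest of 3 equal classes of signal and 0.103 in the brightest. For signals near the floor, the size of a fold depends on the added constant.

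Med23 itself was close to the array floor in KO cells after serum. Its signal was 34.61 and 36.91 on the KO arrays, and 3595 and 3577 on the WT arrays. The groups were far apart, with a log2 difference of -6.12 ± 0.449 (SE; 69.6-fold lower, adjusted p = 3.29e-06). The labels do not say whether the deletion removes the stretch that this probe set reads. Of genes near Med23 on the chromosome in RefSeq order, Enpp3, Arg1 and Akap7, the closest with a probe set, were below the filter, and the tested ones, 3 to 5 genes away, varied. Stx7, a vesicle fusion protein, differed by -0.18 ± 0.104 (adjusted p = 0.163), Ccn2, a secreted matrix protein, by 0.17 ± 0.183 (adjusted p = 0.47) and Epb41l2, a membrane skeleton protein, by -0.80 ± 0.112 (adjusted p = 0.000241). Moxd1, a monooxygenase-like gene, read 745.9 and 1159 in WT against 15.68 and 12.52 in KO, a difference of -4.98 ± 0.44 (adjusted p = 1.14e-05).

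Egr1, the zinc finger factor named in the study's purpose, was high in both genotypes after serum. The WT arrays read 44251 and 44094 and the KO arrays 40512 and 39301. The KO values lay below both WT values, but the difference of -0.15 ± 0.156 (1.11-fold) did not pass (adjusted p = 0.458).

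The genotypes differed widely after serum. In all, 7331 probe sets (51.3% of those tested) were called, 3334 higher in KO (23.3%) and 3997 lower (28%). By the study's own rule of a change over 2-fold, here with the added condition that the arrays of the groups do not overlap, 2878 (20.1%) passed, 1208 higher (8.45%) and 1670 lower (11.7%). Most calls were small: 61.0% were under 2-fold, while 404 calls were over 4-fold higher and 508 over 4-fold lower. The arrays of the groups did not overlap for 79% of tested probe sets. The balance of directions follows the scaling of the arrays. Centring each array on its median moved the median difference of all tested probe sets from -0.06 to 0.10 and gave 4402 calls higher and 2984 lower (59.6% higher against 45.5%), and 1583 higher and 1309 lower by the 2-fold rule. Counting 1 probe set per gene, which is how genes in lists are counted below, 52.5% of genes were called, 23.6% higher and 28.9% lower, and 8.6% and 11.7% passed the 2-fold rule in each direction. Their median difference was -0.07. Counts of list members below are to be read against these shares of all genes.

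The genes with the largest higher values in KO had low signals in WT. Pdgfra, the PDGF receptor alpha that marks mesenchymal cells, read 13.48 and 13.25 in WT and 6040 and 6981 in KO. The difference was 7.79 ± 0.217 (adjusted p = 9.36e-09), and a second Pdgfra probe set, at 41.65 and 46.76 against 1665 and 1906, gave 4.90 ± 0.293. Apod, a lipid-binding secreted protein, read 84.76 and 67.89 against 19144 and 20816, a difference of 7.76 ± 0.199. Ptn, a heparin-binding growth factor, read 57.92 and 92.74 against 18221 and 19653, a difference of 7.72 ± 0.328. The cell adhesion protein Svep1 differed by 7.66, tenomodulin (Tnmd), a tendon membrane protein, by 7.48, the amino acid transporter Slc38a4 by 7.42 and the guidance cue Slit3 by 7.39. The transcriptional cofactor Cited1 differed by 7.39, the vasodilator peptide adrenomedullin (Adm) by 7.29, the vessel growth factor Angpt1 by 6.82, the elastic fibre protein Mfap4 by 6.77 and angiotensinogen (Agt) by 6.61. Abi3bp, an extracellular matrix protein, differed by 6.59 and Gli2, the Hedgehog pathway transcription factor, by 6.42. Nid1, which links laminin to collagen in basement membranes, had uneven WT arrays, 18.17 and 458.6, against 18198 and 17015 in KO, so its difference of 7.11 has an SE of 1.22 (adjusted p = 0.00084); a second probe set at 50.45 and 42.52 against 4489 and 4722 gave 6.21 ± 0.435.

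The genes with the largest lower values in KO included cell cycle inhibitors, detoxifying enzymes and a neurotrophic factor. Asb4, a ubiquitin ligase subunit, read 10375 and 16648 in WT and 19.63 and 41.72 in KO, a difference of -8.18 ± 0.441 (adjusted p = 4.38e-07). Satb1, a chromatin organiser, read 6319 and 8216 against 19.06 and 6.393, a difference of -8.01 ± 0.494, and its other tested probe sets gave -8.38 and -5.78. Cyp1b1, a cytochrome P450 that the aryl hydrocarbon receptor controls, read 15078 and 12852 against 54.75 and 134.5, a difference of -7.08 ± 0.303. The desmosome protein Pkp1 differed by -7.03, Fgf13 by -6.18 and the extracellular superoxide dismutase Sod3 by -6.14. Gdnf, a neurotrophic factor, differed by -5.95, the deubiquitinase Uchl1 by -5.83, the G protein subunit Gng11 by -5.76 and Pdk4, a kinase that holds back pyruvate dehydrogenase, by -5.70. Sprr1a, a cornified envelope protein, differed by -5.67, and the CDK inhibitors Cdkn2b and Cdkn2a by -6.30 and -5.49. These genes, like the highest ones, were chosen among those without overlap between the groups.

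**Figure D1:**
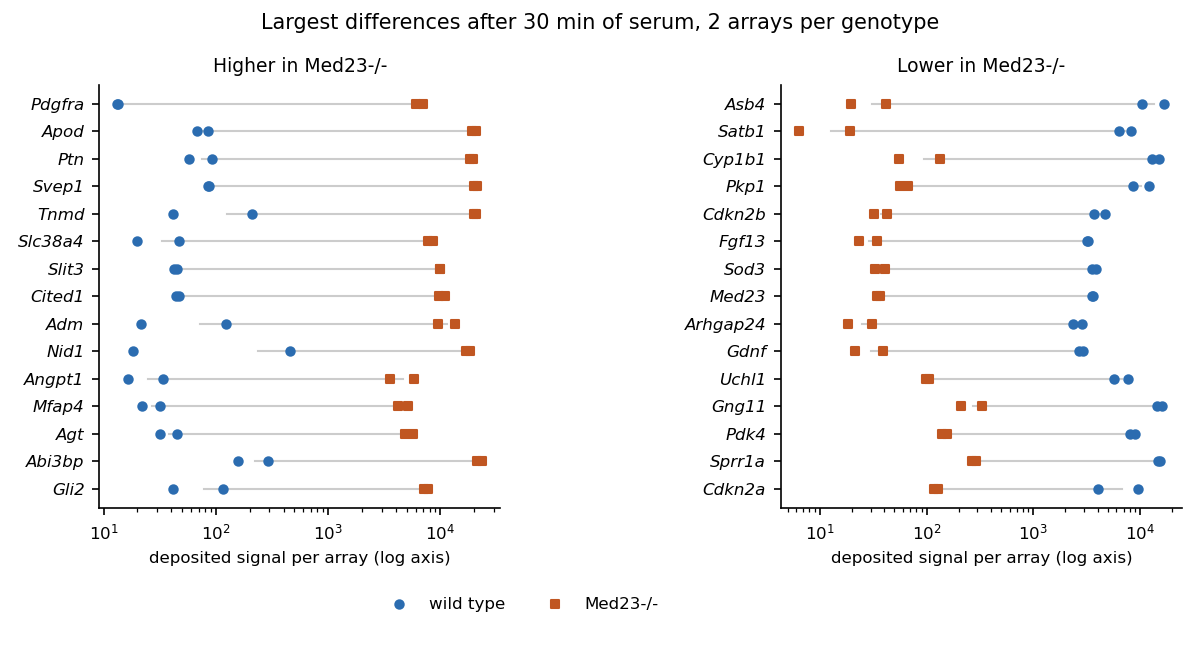
Deposited signal (horizontal log axis) on each stimulated array for the 15 genes with the largest higher (left) and lower (right) differences, WT arrays as circles and KO arrays as squares, with a line between the group means. Only genes without overlap were eligible. On every array of the low group except WT array 2 of Nid1 (458.6) the signal is under 412.6, the lowest of the 40th percentiles of the 4 arrays.

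Immediate early transcription factors were mostly at high levels in both genotypes, with some higher and some lower in KO. Among the 27 tested of 29 listed, 10 were higher, 5 were lower and 12 did not pass, with a median difference of 0.39 against -0.07 for all genes. The share called, 55.6%, was near the 52.5% of all genes. Klf2, a Krüppel-like factor, had the largest difference, at 623 and 555.1 in WT against 4920 and 4762 in KO, which is 3.01 ± 0.215 (8.04-fold, adjusted p = 2.79e-06). Its relative Klf4 read 2409 and 1599 against 7881 and 9404, a difference of 2.12 ± 0.217 (adjusted p = 2.98e-05). Both KLF genes were thus several-fold higher in KO with no overlap.

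Members of the AP-1 group, the dimeric factors made of Fos, Jun and their relatives, differed less. Jun read 15868 and 16095 in WT and 31859 and 29710 in KO, a difference of 0.94 ± 0.14 (adjusted p = 0.000341), and its second probe set gave 0.91 ± 0.165. Fos read 28322 and 24153 against 46808 and 44542, a difference of 0.80 ± 0.168 (adjusted p = 0.00271). The small Maf protein Maff, at 9463 and 7543 against 28625 and 30545, was higher by 1.80 ± 0.182 (adjusted p = 2.8e-05), and the growth regulator Myc by 0.90 ± 0.114 (adjusted p = 0.000131). Bhlhe40, a basic helix-loop-helix repressor also counted among clock genes, went the other way, at 17112 and 15857 against 4278 and 4576, a difference of -1.89 ± 0.129 (adjusted p = 2.05e-06). Members the list is known by that did not pass were Fosb at 0.39 ± 0.157 (adjusted p = 0.0622), Junb at 0.03 ± 0.172, the orphan receptor Nr4a1 at 0.24 ± 0.171, Egr2 at 0.44 ± 0.333 and the stress factor Atf3 at 0.53 ± 0.528. Atf3 had a wide WT spread, 12633 and 8530, against 15368 and 14597 in KO.

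Genes for ternary complex factors, their Ets relatives, SRF and its cofactors were mixed. Of 9 tested, 2 were higher and 4 lower in KO, with a median of -0.27. Srf read 11168 and 13546 in WT and 22664 and 21160 in KO, a difference of 0.83 ± 0.128 (adjusted p = 0.00044), while a second Srf probe set, at 3765 and 4374 against 4654 and 5861, gave 0.36 ± 0.176 (adjusted p = 0.109). Ets2 was lower by -1.63 ± 0.204, at 4920 and 4104 against 1292 and 1613, and Ets1 by -0.92 ± 0.151. Elk3, a ternary complex factor that can repress, was lower by -0.81 ± 0.154 and Etv6 by -0.62 ± 0.162, and Etv5 was higher by 1.02 ± 0.245 (adjusted p = 0.00585), but not called by its other probe set, at 0.76 (adjusted p = 0.084). Without stimulated KO array 1, only 1 gene of this list was higher.

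SRF binds a short motif known as the CArG box. Promoter windows from RefSeq (GRCm38.p6), each of 300 bases with 250 before and 50 after a gene's start, were on hand for 18 of the 27 tested immediate early factors, and a box, which reads the same on both strands, was found in those of 2 of them, Egr2 and Srf (11.1%). Over all 27025 genes with a window the share was 1.81%. Egr1, Myc and Bhlhe40 were not among the 18 genes with a window, so the search says nothing about them. A window without a box says only that these letters are not in it. The windows are shown because Srf was called and Egr2 was not; boxes are in capitals, and each sequence runs 5′ to 3′ along the gene's strand. The Srf window is chr17:46556113-46556412 on the minus strand, and holds 2 boxes. Egr2 has 5 windows from its different starts, and a box lies in 4; the 1 shown is chr10:67537619-67537918 on the plus strand.
Srf: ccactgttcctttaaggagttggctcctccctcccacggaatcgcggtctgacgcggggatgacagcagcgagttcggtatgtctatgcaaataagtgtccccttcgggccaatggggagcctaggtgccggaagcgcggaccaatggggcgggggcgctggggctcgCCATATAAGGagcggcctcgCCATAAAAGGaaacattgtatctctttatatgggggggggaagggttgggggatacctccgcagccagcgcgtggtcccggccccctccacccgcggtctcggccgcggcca
Egr2: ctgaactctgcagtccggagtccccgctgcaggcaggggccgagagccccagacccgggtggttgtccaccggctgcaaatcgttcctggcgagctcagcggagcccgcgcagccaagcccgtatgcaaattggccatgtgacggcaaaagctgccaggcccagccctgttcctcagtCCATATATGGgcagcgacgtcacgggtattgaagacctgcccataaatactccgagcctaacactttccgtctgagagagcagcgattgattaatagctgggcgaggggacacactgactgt

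Egr2 in KO did not stand apart from WT by the test. Its arrays read 10390 and 8228 in WT and 12022 and 13109 in KO, and a second probe set gave 0.23 ± 0.194 (adjusted p = 0.357).

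Early feedback inhibitors, such as phosphatases and factors that speed RNA decay, were more often higher than lower. Of 27 tested, 14 were higher, 5 lower and 8 did not pass, with a median of 0.37. Rgs16, which shortens G protein signals, read 831 and 742.5 in WT against 3822 and 4685 in KO, a difference of 2.41 ± 0.358 (adjusted p = 0.000346). Zfp36, which destabilises AU-rich mRNAs, read 21590 and 20602 against 41181 and 40059, a difference of 0.94 ± 0.133, while its relative Zfp36l1 was lower by -0.78 ± 0.0952. The MAP kinase phosphatases also split: Dusp10 was higher by 1.36 ± 0.238 and Dusp1 by 0.52 ± 0.175 (adjusted p = 0.0301, lost in 6 alternative settings), and Dusp14, at 5380 and 5825 against 833.4 and 1037, was lower by -2.57 ± 0.174 (adjusted p = 1.97e-06). Gadd45a, a growth arrest and DNA damage protein, was lower by -2.34 ± 0.308, whereas Gadd45g overlapped between groups at 0.08 ± 0.215. Btg2, an antiproliferative gene, was higher by 0.65 ± 0.158 and Errfi1, which restrains EGF receptor signalling, did not pass at 0.37 ± 0.159 (adjusted p = 0.0772), while its second probe set, at 25501 and 26016 against 40522 and 45277, was higher by 0.73 ± 0.109 (adjusted p = 0.000337). The 14 higher became 9, 8 and 9 without stimulated KO array 1, KO array 2 or WT array 2.

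Cytokines and other early secreted proteins were more often lower. Of 18 tested, 6 were higher and 10 lower in KO, with a median of -0.84, and 8 of the lower ones passed the 2-fold rule. Lif, a cytokine of the interleukin 6 family, read 43154 and 34732 in WT and 3532 and 4112 in KO, a difference of -3.34 ± 0.334 (adjusted p = 2.63e-05), and -5.08 by a second probe set. The vasoconstrictor endothelin 1 (Edn1) was lower by -2.36 ± 0.238, at 5162 and 7972 against 1244 and 1228. Inhba, an activin subunit, was lower by -1.95 ± 0.225, the EGF family ligand Hbegf by -1.32 ± 0.151, Vegfa, a growth factor for vessels, by -0.94 ± 0.113 and Ptgs2, the inducible cyclooxygenase, by -0.74 ± 0.171, with a second probe set that did not pass at -0.47 (adjusted p = 0.0556). Chemokines of the list ran the other way. Ccl7 read 2578 and 1147 against 19614 and 17706, a difference of 3.42 ± 0.416 (adjusted p = 9.65e-05), Ccl2 14526 and 8233 against 30700 and 33342, which is 1.55 ± 0.3 (adjusted p = 0.00176), and Cxcl1 was higher by 1.17 ± 0.24 (adjusted p = 0.00252). Ccn1 and Ccn2, matricellular proteins that serum and Yap control, did not pass, at 0.15 ± 0.118 and 0.17 ± 0.183, and both differences turned negative, at -0.17, after quantile normalization.

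**Figure D2:**
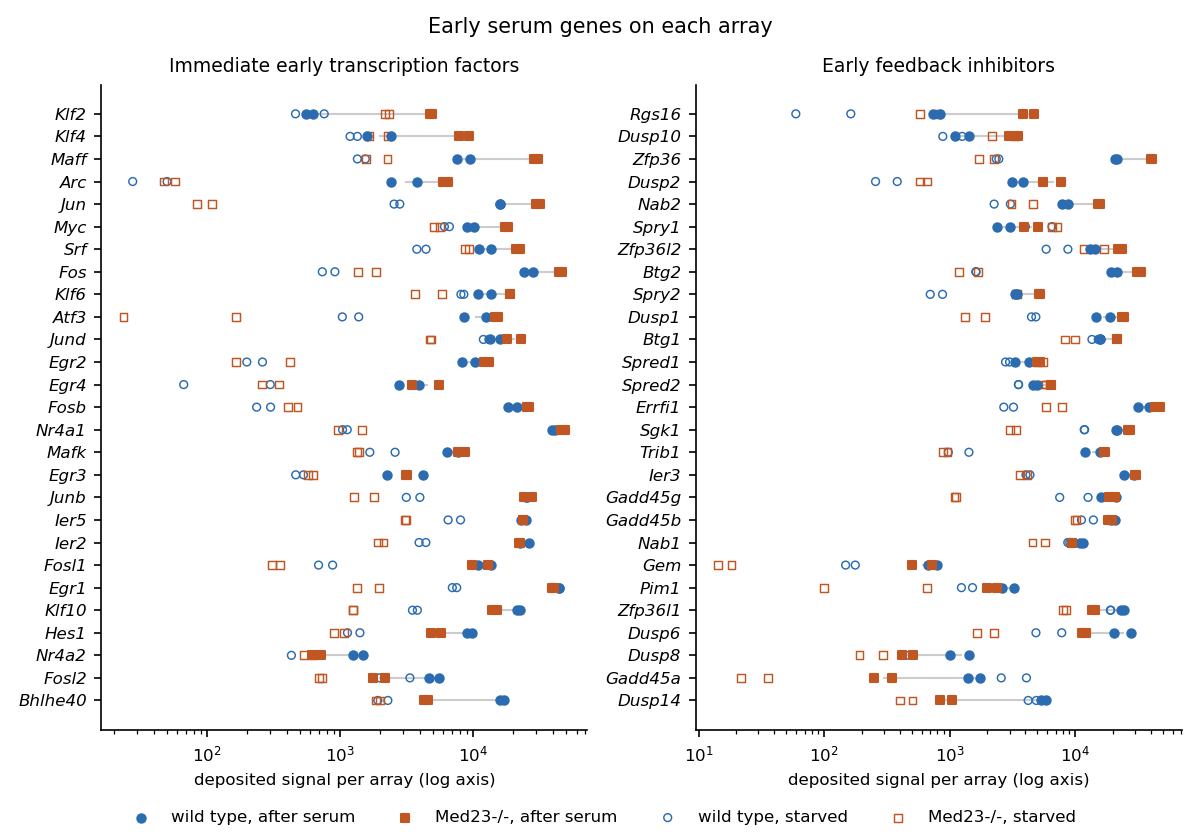
Deposited signal on each array (horizontal log axis) for the tested immediate early factors (left) and feedback inhibitors (right), sorted by the difference after serum; filled symbols are stimulated arrays, open symbols starved arrays, circles WT and squares KO. After serum most members of both genotypes lie close together at high signal. Among those that stand apart are Klf2, Klf4, Maff and Rgs16 (higher in KO) and Bhlhe40, Gadd45a and Dusp14 (lower in KO).

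Ligands and antagonists of the TGF-beta and BMP families and the Id proteins, which block basic helix-loop-helix factors downstream of BMP, moved in both directions. Of 25 tested, 8 were higher and 12 lower, with a median of -0.37. The ligand Tgfb1 read 6296 and 7336 in WT and 280.3 and 289.1 in KO, a difference of -4.50 ± 0.21 (adjusted p = 2.09e-07). Ltbp1, which stores latent TGF-beta in the matrix, was lower by -5.22 ± 0.226, at 16193 and 18840 against 359.6 and 567.5, and Tgfb2 by -2.18 ± 0.17. The activin antagonist follistatin (Fst) was lower by -1.54 ± 0.162. Bmp4 was higher by 2.52 ± 0.148, at 2023 and 1983 against 12534 and 10590, and Tgfbi, a matrix protein that TGF-beta induces, by 4.50 ± 0.165, at 322.5 and 364.5 against 8107 and 8150. Of the Id genes, Id1 was lower by -1.27 ± 0.273 (adjusted p = 0.00318) and Id3 by -0.88 ± 0.158 (adjusted p = 0.00111), and Id2 did not pass at -0.11 ± 0.233.

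Among Mediator subunits more genes were lower than higher. Of 29 tested subunit genes, Med23 included, 13 were lower, 4 higher and 12 did not pass, with a median of -0.47. By the 2-fold rule 4 were lower, Med23 among them, and 1 was higher. The share called was 58.6%, against 52.5% of all genes. Med24, a tail subunit that sits beside MED23, read 2493 and 2360 in WT and 1247 and 1205 in KO, a difference of -0.98 ± 0.134 (adjusted p = 0.000213), while Med16, also of the tail, was higher by 0.34 ± 0.117 (adjusted p = 0.0328), a call lost in 4 alternative settings. Med31 was lower by -1.23 ± 0.153, Med8 by -1.09 ± 0.141 and Med10 by -0.89 ± 0.133, and the kinase subunit Cdk8 by -0.62 ± 0.118. Med20 was higher by 1.00 ± 0.134, but a second Med20 probe set did not pass at 0.07 ± 0.147. The 4 higher became 1, 2 and 2 without stimulated KO array 1, KO array 2 or WT array 2.

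**Figure D3:**
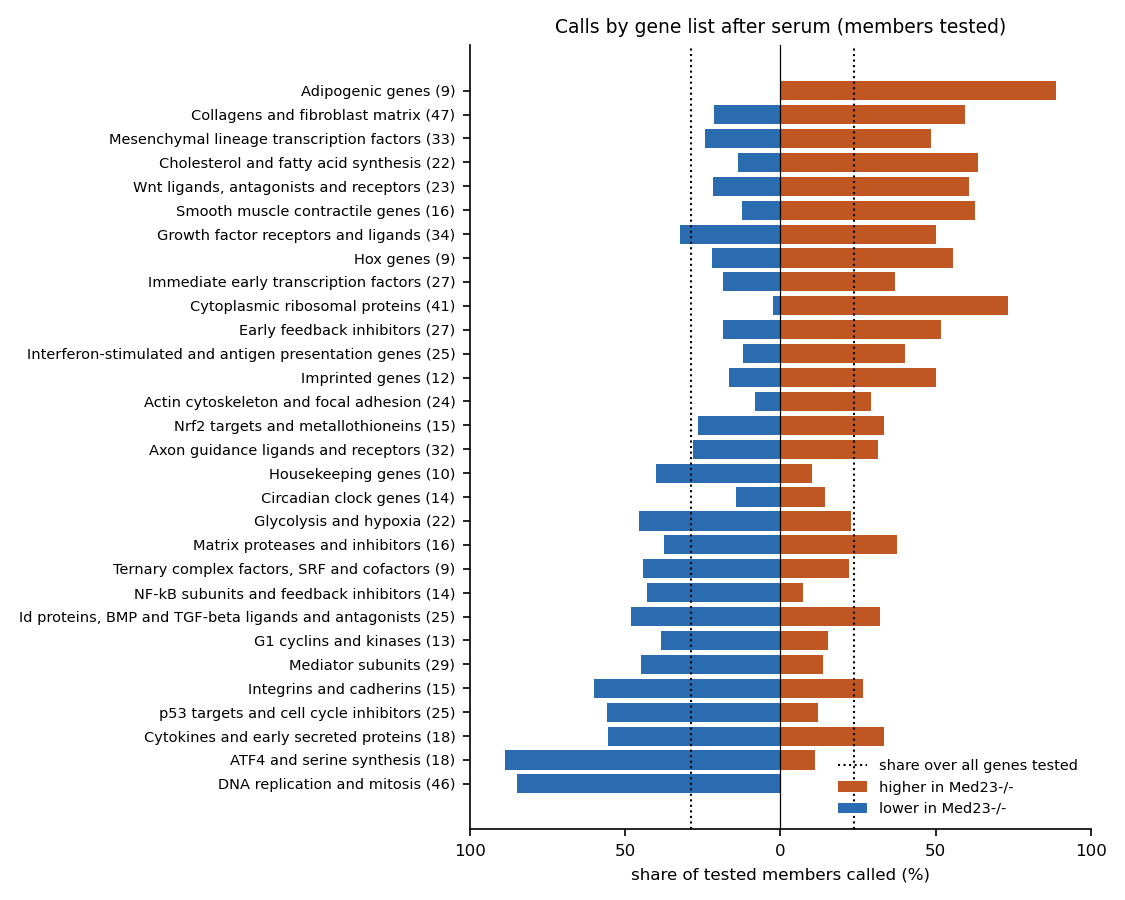
Share of tested members of each list, cell type markers aside, with 9 or more tested members that were called higher (right) or lower (left) in KO after serum, sorted by median difference, with the number tested in brackets; dotted lines mark the shares over all genes, 23.6% higher and 28.9% lower. DNA replication and mitosis and ATF4 and serine synthesis have the largest shares lower, and of the lists shown the adipogenic and ribosomal ones have the largest shares higher.

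Matrix genes were largely higher in KO cells. Of 47 tested collagens and fibroblast matrix genes, 28 were higher and 10 lower, with a median of 0.65, and 20 and 4 passed the 2-fold rule. Mgp, matrix Gla protein, which inhibits calcification, read 1425 and 1411 in WT and 26925 and 26544 in KO, a difference of 4.22 ± 0.103 (adjusted p = 8.28e-09). The collagen Col8a1 was higher by 5.08 ± 0.238, the laminin chain Lama4 by 2.76 ± 0.132, the proteoglycan versican (Vcan) by 2.68 ± 0.117 and periostin (Postn) by 2.26 ± 0.12. Col1a1, the main chain of type I collagen, did not pass, at 45521 and 47082 against 49665 and 52134, a difference of 0.14 ± 0.0944 (adjusted p = 0.252), and was lower by -0.18 after quantile normalization (adjusted p = 0.0267). Its partner chain Col1a2 had uneven WT arrays, 742.9 and 9443, against 62376 and 66212, a difference of 4.58 ± 1.19 (adjusted p = 0.00916).

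The identity of the cells was checked on marker lists. Fibroblast markers were mostly higher in KO: 7 of 9 tested were higher and 1 lower. The summed signal of the 10 listed genes was 116793 and 132671 on the WT arrays and 247353 and 261189 on the KO arrays. In WT, Col1a1 and Vim were bright, at 45521 and 47082 and at 53601 and 55069. Pdgfra (13.48 and 13.25) and Lum (273.4 and 190.9) lay in WT below 412.6, the lowest of the 40th percentiles of the 4 arrays. S100a4 was higher by 3.41 ± 0.225, Col3a1 by 2.33 ± 0.272, the proteoglycan lumican (Lum) by 2.28 ± 0.278, Pdgfrb by 1.47 ± 0.244 and vimentin (Vim) by 0.33 ± 0.118 (adjusted p = 0.0366), and decorin (Dcn) was lower by -0.85 ± 0.264 (adjusted p = 0.0207). Thy1, at 242.1 and 164.2 in WT and 189.2 and 180.8 in KO, lay below the filter. Of the markers of other cell types on the array, 2 of 8 epithelial, 1 of 6 endothelial, 3 of 8 macrophage and blood, 1 of 6 skeletal muscle and none of 4 pluripotent cell markers were tested. Their summed signals were 2802 and 2331 in WT against 1479 and 2017 in KO for epithelial, 1292 and 1057 against 1075 and 1226 for endothelial, 3966 and 3152 against 2793 and 2866 for macrophage and blood, 904.2 and 880.5 against 1320 and 1500 for skeletal muscle, and 494.6 and 385 against 310.4 and 285.7 for pluripotent cell markers. No marker was at exactly 0, and the defining markers Epcam, Pecam1, Ptprc and Pou5f1 all lay below the filter. The epithelial keratin Krt19 read 690.5 and 713.3 against 29.01 and 14.96, a difference of -4.26 ± 0.619, and the monocyte receptor Cd14 was lower by -1.62 ± 0.215. Neural markers summed to 7962 and 7012 in WT and 1563 and 1675 in KO, where Nes, an intermediate filament of progenitors, was lower by -3.50 ± 0.166 and Tubb3 by -3.30 ± 0.59. A second Nes probe set differed less, by -0.65 ± 0.246 (adjusted p = 0.0485). Cartilage markers summed to 20898 and 21895 against 6590 and 5154: Col2a1 was lower by -3.29 ± 0.185, while Sox9 and Col11a2 were higher by 0.74 and 1.06 (adjusted p = 0.0389 and 0.0152), and 1 of them was higher without any 1 of the stimulated arrays. The calls of Dcn and Vim were each lost in some of these settings too, and the single lower fibroblast marker was lost without KO array 1, KO array 2 or WT array 1. In these bulk samples a smaller share of cells of a kind and less RNA per cell cannot be told apart, and the part of these markers in the other gene groups was not tested.

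Matrix proteases and their inhibitors were balanced, with 6 higher and 6 lower of 16 tested. The aggrecanase Adamts5 was higher by 3.07 ± 0.154, Serpinf1, an inhibitor of vessel growth, by 5.88 ± 0.434 and the gelatinase Mmp2 by 1.01 ± 0.0938. Tissue plasminogen activator (Plat) was lower by -1.99 ± 0.156, Mmp11 by -1.42 ± 0.175 and the inhibitor Timp1 by -1.02 ± 0.118. Smooth muscle contractile genes were mostly higher, with 10 higher and 2 lower of 16 and a median of 0.52. The myosin light chain Myl9 read 13967 and 14086 against 38776 and 40853, 2.84-fold higher in KO (SE 0.0952 on the log2 scale), and Lmod1, Actg2, calponin 2 (Cnn2) and Tpm2 were higher by 2.57, 1.77, 0.77 and 0.56, while Tagln2 was lower by -0.91 ± 0.149. Second probe sets of Tpm2 and Tagln2 did not pass, at 0.33 and -0.47. The standard markers Tagln and Acta2 were higher by 0.54 ± 0.125 and 0.32 ± 0.105 (adjusted p = 0.00477 and 0.0268), and the call of the first Acta2 probe set was lost in 7 of the alternative settings. A dimmer Acta2 probe set, at 905.5 and 1083 against 5889 and 6188, gave 2.59 ± 0.169. Of 24 actin and focal adhesion genes, 7 were higher and 2 lower, with a median of 0.11 that turned to -0.11 after quantile normalization, with 4 higher and 4 lower; 4 were higher without stimulated KO array 2. Vinculin (Vcl) was higher by 0.67 ± 0.0973 and Fhl2 by 0.85 ± 0.145, and Ankrd1, a Yap target, read 7488 and 8349 against 368.5 and 520.2, a difference of -4.12 ± 0.185. Integrins and cadherins were more often lower, with 9 lower and 4 higher of 15 and a median of -0.51. Itga3 was lower by -2.09 ± 0.139, and its other probe sets gave -5.20 and -3.39, Itgb5 by -1.66 ± 0.118, Cdh13 by -1.36 and Pcdh7 by -1.34, whereas Itga8 was higher by 4.21 ± 0.224 and Cdh11, a mesenchymal cadherin, by 2.17 ± 0.102.

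Genes that mark position and lineage differed strongly. Of 33 tested mesenchymal lineage transcription factors, 16 were higher and 8 lower, with a median of 0.63. Foxc1 read 1058 and 1193 in WT and 8884 and 8470 in KO, a difference of 2.93 ± 0.168, Foxd1 was higher by 2.62 ± 0.161, Six2 by 2.38 ± 0.146 and Prrx1, a limb mesenchyme factor, by 1.84 ± 0.114, and Runx1, a blood and bone factor, was lower by -2.24 ± 0.22, though a second Runx1 probe set did not pass at -0.34. Of 36 Hox, Pbx and Meis genes named on the array only 9 were tested, 5 higher and 2 lower. Hoxd8 and Hoxd9 read 33.07 and 336.3, and 44.89 and 199.6, in WT against 4497 and 4841, and 2365 and 2323, in KO, so both were higher, by 5.15 ± 0.731 and 4.36 ± 0.453. Hoxa3 was lower by -3.02 ± 0.351, and the Hox cofactors split, with Pbx3 and Meis2 higher by 1.74 and 1.06 and Meis1 lower by -2.73 ± 0.274. Imprinted genes, expressed from 1 parental copy, had 6 higher and 2 lower of 12. Sgce read 174.6 and 185.9 against 7557 and 6685, a difference of 5.18 ± 0.159, Nnat was higher by 4.73 ± 0.639, Mest by 3.85 ± 0.177 and Plagl1 by 2.92 ± 0.188, and the growth factor Igf2 was lower by -2.83 ± 0.175 and Ndn by -2.06 ± 0.127.

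Adipogenic genes were higher in KO in 8 of 9 tested cases, with none lower and a median of 1.75. The fat cell genes Pparg, Fabp4, Adipoq, Cd36, Klf15 and Cidec were below the filter in both genotypes, with Pparg at 76.9 and 33.89 in WT and 31.71 and 30.44 in KO. Cebpd, an early factor of fat cell differentiation, read 2871 and 3107 in WT and 18954 and 22371 in KO, a difference of 2.78 ± 0.144 (adjusted p = 3.67e-07). A dimmer Cebpd probe set, at 517.7 and 468.5 against 688.4 and 853.4, gave 0.62 ± 0.225 (adjusted p = 0.0405). The lipase Lpl was higher by 2.21 ± 0.278, the fat lineage factors Ebf2, Cebpa and Ebf1 by 2.16, 1.95 and 1.75 and the lipid droplet protein Plin2 by 0.94 ± 0.127. Wnt ligands, antagonists and receptors had 14 higher and 5 lower of 23, with a median of 0.55. The antagonist Sfrp1 read 562.1 and 436.9 against 19743 and 17073, a difference of 5.17 ± 0.175, and Sfrp2 2736 and 2109 against 31450 and 31537, which is 3.70 ± 0.148. The receptors Fzd1 and Lrp6 were higher by 1.89 and 1.18, while Fzd6, at 34120 and 32871 against 4034 and 3615, was lower by -3.13 ± 0.136 and the ligand Wnt5a by -1.71 ± 0.154.

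Growth factor receptors and ligands had 17 higher and 11 lower of 34 tested, with a median of 0.47. Midkine (Mdk), the relative of Ptn, read 384.7 and 407.6 in WT and 7110 and 5562 in KO, a difference of 3.94 ± 0.189, and the growth hormone receptor Ghr was higher by 2.19 ± 0.112. Fgf7, a fibroblast signal to epithelia, read 22903 and 16735 against 1502 and 1632, a difference of -3.63 ± 0.186, and the PDGF ligand Pdgfc was lower by -2.55 ± 0.118. The EGF receptor gene Egfr was higher by 0.64 ± 0.155 (adjusted p = 0.00643), and its other tested probe sets gave 3.29, 2.05 and -0.02, the last not called. Axon guidance genes had 10 higher and 9 lower of 32 (59.4% called against 52.5% of all genes). Their median of -0.06 was 0.11 after median centring and 0.07, 0.02 and 0.06 without stimulated KO array 1, KO array 2 or WT array 1. Slit2, like Slit3, was higher, by 4.99 ± 0.261, with their receptor Robo1 higher by 1.47 ± 0.12 and Efnb2 by 1.80 ± 0.149, while Epha4 and netrin 1 (Ntn1) were lower by -3.13 ± 0.165 and -2.17 ± 0.149.

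Cell division genes were lower in KO cells almost throughout. Of 46 tested genes of DNA replication and mitosis, 39 were lower, none was higher and 7 did not pass, with a median of -1.64 against -0.07 for all genes, and 34 passed the 2-fold rule. The helicase subunit Mcm2 read 5472 and 6224 in WT and 1222 and 1460 in KO, a difference of -2.11 ± 0.164 (adjusted p = 4.84e-06). The mitotic kinase Cdk1 was lower by -1.83 ± 0.147, its partner cyclin A2 (Ccna2) by -2.04 ± 0.175, the proliferation marker Mki67 by -2.29 ± 0.19 and Mcm7 by -1.33 ± 0.111. The polymerase subunit Pole had the lowest value, at 1332 and 879.3 against 19.62 and 23.09, a difference of -4.88 ± 0.417. After quantile normalization or median centring 37 and 36 were lower and 1 was higher in each case. G1 cyclins and kinases had 5 lower and 2 higher of 13 (53.8% called against 52.5% of all genes), with a median of -0.46. Cyclins D2 and D1 (Ccnd2, Ccnd1) were lower by -1.02 ± 0.162 and -0.82 ± 0.125, E2f3 by -0.91, E2f4 by -0.65 and Cdk4 by -0.48 (its second probe set did not pass at -0.17), and E2f5 was higher by 0.92 ± 0.134; 1 was higher without stimulated KO array 1 or WT array 1.

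Inhibitors of the cell cycle and p53 targets were lower as well, with 14 lower and 3 higher of 25 tested and a median of -0.56. Cdkn2b, the CDK4 inhibitor p15, read 3712 and 4696 in WT and 32.02 and 42.83 in KO, and Cdkn2a, which encodes p16 and Arf, 9559 and 4042 against 117.5 and 128.4. Both adjacent genes were near the floor on both KO arrays (adjusted p = 4.83e-08 and 1.5e-06). Their neighbour Mtap on the same chromosome was lower by -0.71 ± 0.11, at 14898 and 14266 against 9264 and 8514, and other Mtap probe sets by -1.19 to -1.49; Elavl2, 4 genes away, did not pass at -0.65 (adjusted p = 0.155), and Caap1 and Plaa, 7 and 8 genes away, were lower by -1.06 ± 0.2 and -1.02 ± 0.141. The p53 targets Zmat3 and Bbc3 were lower by -1.51 ± 0.148 and -1.55 ± 0.178 and Mdm2, the ubiquitin ligase of p53, by -0.70 ± 0.126, while Sesn1 was higher by 1.46 ± 0.141 and the CDK inhibitor Cdkn2c, at 2363 and 2530 against 10259 and 10234, by 2.06 ± 0.108.

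**Figure D4:**
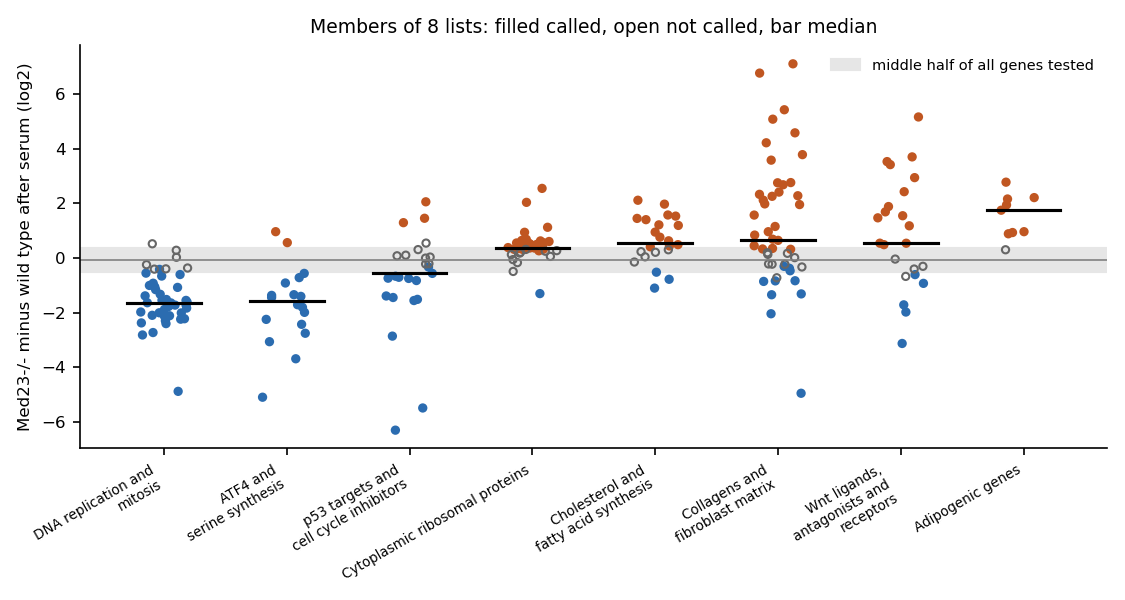
KO minus WT after serum (vertical axis, log2) for each tested member of 8 lists, filled where called and open where not, with a bar at each list's median; the grey band is the interquartile range of all genes and the line their median of -0.07. Most replication and ATF4 genes lie below the band, and ribosomal genes range from -1.30 to 2.55 around a median of 0.38.

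Genes of the amino acid stress response were lower in KO with few exceptions. Of 18 tested ATF4 targets and serine synthesis genes, every one was called, 16 lower and 2 higher in KO, with a median of -1.58. Chac1, which degrades glutathione, read 5478 and 6707 in WT and 456.8 and 455 in KO, a difference of -3.69 ± 0.166 (adjusted p = 1.68e-07). The pseudokinase Trib3 was lower by -3.06 ± 0.208, the amino acid transporter Slc7a5 by -2.75 ± 0.201, the serine synthesis enzymes Psph and Phgdh by -2.43 ± 0.153 and -1.37 ± 0.145, the mitochondrial folate enzyme Mthfd2 by -2.24 ± 0.206 and asparagine synthetase (Asns) by -1.80 ± 0.137. Atf4 itself was higher, at 18697 and 17059 against 26271 and 26569, a difference of 0.56 ± 0.1 (adjusted p = 0.00103), and 1.01 by a second probe set. With an array left out, 15 or 16 were lower and 2 higher in every case.

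Ribosomal protein genes were higher by small amounts, with 30 higher and 1 lower of 41 tested and a median of 0.38. Rps6 read 1778 and 2001 against 12594 and 9836, a difference of 2.55 ± 0.162, Rpl14 was higher by 2.04 ± 0.188, and Rpl37, Rpl37a and Rps14 by 1.13, 0.94 and 0.63. Rpl22 was lower by -1.30 ± 0.189, while a second Rpl22 probe set was higher by 0.81 ± 0.133, and a second Rpl37a probe set did not pass at 0.27. Ribosomal genes have many near-identical copies in the genome, so a probe set can read several of them. The count of 30 fell to 16, with a median of 0.12, after quantile normalization, and to 19, 15 and 16 without stimulated KO array 1, KO array 2 or WT array 2. Cholesterol and fatty acid genes had 14 higher and 3 lower of 22, with a median of 0.56. The isomerase Idi1 read 5868 and 6691 against 24680 and 24636, a difference of 1.97 ± 0.155, the fatty acid elongase Elovl6 was higher by 2.12 ± 0.22, Sc5d by 1.54 ± 0.119, the cholesterol carrier Stard4 by 1.45 ± 0.137, and Sqle and Fdft1 by 1.22 and 1.20.

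Glycolysis and hypoxia genes had 10 lower and 5 higher of 22 tested, with a median of -0.17. The mTOR inhibitor Ddit4 read 5453 and 4249 against 343.2 and 431.8, a difference of -3.59 ± 0.202, the stress gene Ndrg1 was lower by -1.65 ± 0.151, the glucose transporter Slc2a1 by -1.62 ± 0.19 and pyruvate kinase (Pkm) by -1.05 ± 0.105, and the oxygen sensor Egln3 was higher by 2.21 ± 0.229. Nrf2 targets and metallothioneins had 5 higher and 4 lower of 15 (60% called against 52.5% of all genes), and 2 lower without stimulated KO array 1 or WT array 1. Glutathione transferases were higher, Gsta4 by 4.92 ± 0.413, Gstm2 by 2.55, Gstm1 by 1.40 and Gstp1 by 0.57, as was Txnip by 3.12 ± 0.291, and metallothionein 1 (Mt1) was lower by -2.32 ± 0.374. Besides Cyp1b1, the aryl hydrocarbon receptor Ahr and its partner Arnt were lower, by -1.60 ± 0.211 and -0.59 ± 0.134. That made 3 lower and none higher of 4 tested. Second probe sets gave -0.74 ± 0.21 for Ahr (adjusted p = 0.0139) and 0.03 for Arnt (adjusted p = 0.918). Of 14 clock genes, 2 were higher and 2 lower, with 4 higher after either other scaling and 1 higher without stimulated KO array 1 or WT array 2; the repressor Nr1d1 read 2159 and 1910 against 105 and 104.7, a difference of -4.08 ± 0.42, and Cry1 and Tef were higher by 1.74 ± 0.438 and 0.88 ± 0.115.

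Interferon-stimulated and antigen presentation genes had 10 higher and 3 lower of 25 tested (52% called against 52.5% of all genes), with a median of 0.29. Ifitm1 read 350.4 and 339.6 against 5952 and 4822, a difference of 3.90 ± 0.192, the GTPase Iigp1 was higher by 2.17 ± 0.176, and Psmb9, Tap1 and Ifitm3 by 1.63, 1.08 and 0.73, while Ifit2 was lower by -1.75 ± 0.244. NF-kB subunits and feedback inhibitors had 6 lower and 1 higher of 14 (50% called, also near the share of all genes), with a median of -0.35. Bcl3 was lower by -1.63 ± 0.235, Nfkbie by -1.24 ± 0.177, the ubiquitin editor Tnfaip3 by -1.15 ± 0.211, Tnip1 by -0.79 and Relb by -0.63, and Nfkbiz, at 5870 and 6124 against 17306 and 19264, was higher by 1.60 ± 0.172. Of 10 genes often used as references (50% called), 4 were lower and 1 was higher, or 4 higher after median centring. The transferrin receptor Tfrc was lowest at -1.51 ± 0.137. The Y-linked genes Kdm5d and Eif2s3y gave signal in both genotypes, at 1298 and 1412 against 3361 and 3491 and at 1334 and 1129 against 4004 and 3488, so both were higher in KO, by 1.33 and 1.59; they were the only 2 called of 8 sex-linked transcripts.

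The comparison after serum was then set against the same comparison in starved cells, which takes its means from the other 4 arrays but shares the estimate of the spread and the filter. In starved cells 6940 of the tested probe sets (48.5%) were called, and 5056 were called with the same direction in both, which is 69.0% of the calls after serum and 72.9% of those in starved cells. Another 104 were called in opposite directions. The difference between the comparisons, tested as an interaction in the limma fit, was called for 415 probe sets (2.9%), with 250 more positive after serum (1.75%) and 165 more negative (1.15%), or 369 and 111 after median centring. Of the 415, 250 had opposite signs in the 2 comparisons and 116 were not called after serum. The count fell to 124 and 175 without stimulated KO array 1 or 2, to 212 and 165 without stimulated WT array 1 or 2 and to 205 without either starved WT array.

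Immediate early factors were the list with the most such differences: for 12 of 27 the KO minus WT difference was more positive after serum, and for 1 it was more negative, against 2.94% of all genes in either direction. Jun had the largest, 5.54 ± 0.198 (adjusted p = 9.93e-07), from a starved difference of -4.59 to 0.94 after serum. Its starved KO arrays read 84.01 and 109.1, and alternative settings gave 3.99 to 5.74. A second Jun probe set changed less, by 2.50 ± 0.233 (adjusted p = 0.000862), from -1.58 to 0.91. Atf3 followed at 4.38 ± 0.746 (adjusted p = 0.0153), a call lost in 5 of 20 alternative settings, with values of 2.61 to 5.47, then Gadd45a at 3.86 ± 0.436, Ccl7 at 3.46 ± 0.588, Ccl2 at 3.42 ± 0.424 and Gadd45g at 3.20 ± 0.304. Gadd45a was near the floor on the starved KO arrays, at 35.51 and 21.91. Its call held in all 19 alternative settings, with values of 1.91 to 4.41. For Jun, Atf3, Ccl2 and Gadd45g, both starved KO arrays lay below both starved WT arrays. After serum both KO arrays of Jun, Atf3 and Ccl2 lay above both WT arrays, and those of Gadd45g overlapped with WT. Egr1 went from -2.15 to -0.15, a change of 2.01 ± 0.221 (adjusted p = 0.00191).

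Id genes and some others moved the opposite way. Id1, Id2, Atoh8 and Fam43a were called higher in KO in starved cells. The difference of Id2 went from 4.33 to -0.11, a change of -4.44 ± 0.329 (adjusted p = 0.000255), and that of Id1 from 2.11 to -1.27, a change of -3.38 ± 0.386 (adjusted p = 0.00231). Atoh8, a helix-loop-helix factor, changed by -4.12 ± 0.58 and Fam43a by -3.81 ± 0.38, and neither was called after serum. Id3 and Sox9 were also called higher in starved KO cells, by 0.88 and 3.50. The muscle atrophy ubiquitin ligase Fbxo32, at 4833 and 4824 against 102.4 and 173.5, and Gm13889, at 1832 and 1378 against 19.3 and 55.7, were lower in KO after serum by -5.01 ± 0.22 and -5.00 ± 0.55, and their differences changed by -3.59 ± 0.311 and -3.90 ± 0.778. The call for Gm13889 was lost in 6 of 19 alternative settings, with values of -4.41 to -2.43. In the Id, BMP and TGF-beta list 6 of 25 changed this way and none the other. The matrix, ribosomal, integrin and imprinted lists had none among 47, 41, 15 and 12 tested, which is near the 2.94% of all genes.

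**Figure D5:**
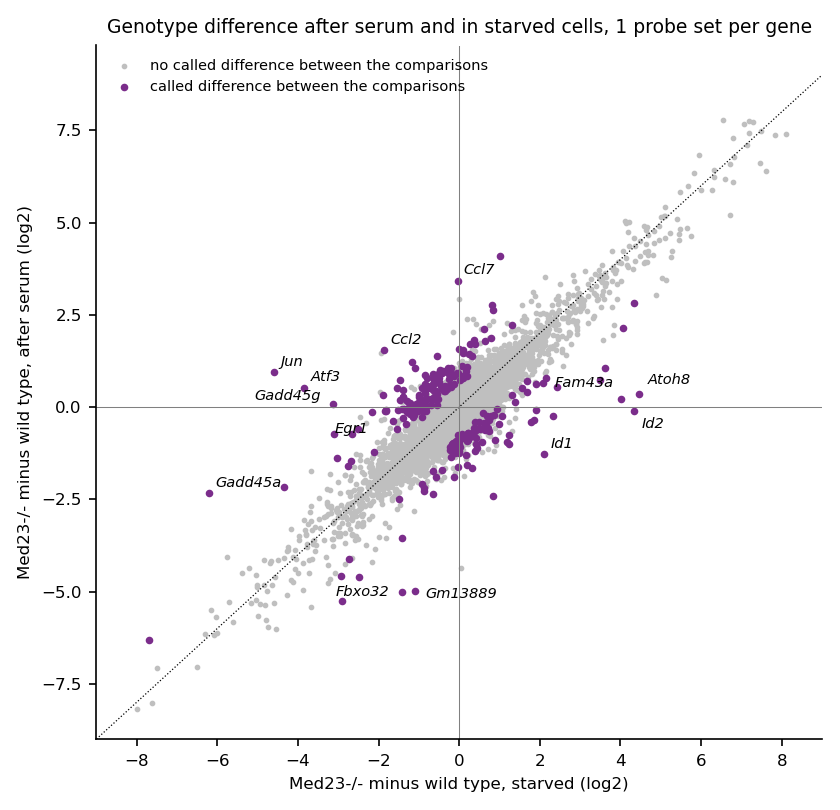
KO minus WT after serum (vertical axis, log2) against KO minus WT in starved cells (horizontal axis, log2) for 1 probe set of each tested gene; dark points are genes with a called difference between the comparisons, the 6 largest in each direction and Egr1 are named, and the dotted line marks equal values. Most genes lie along the line, while Jun, Atf3 and Gadd45g lie far to the left and Id2, Atoh8 and Fam43a far to the right, near 0 after serum.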

How the data were processed

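RNA of the 8 samples was measured on Affymetrix arrays, 2 per group. Each deposited value is the intensity of a probe set on a linear scale. The submitters' processing notes name MAS5, without a version, as what the authors used to make it. The number of arrays limits the precision. From these, log2(signal + 16) was computed and fitted with limma 3.58.1 in R 4.3.3 as 4 group means over 8 arrays (4 residual degrees of freedom), with a mean-variance trend and Benjamini-Hochberg adjustment over 14299 probe sets. The fit was tested on simulated data. The filter required a signal at or above the 40th percentile on 2 of the 4 stimulated arrays, and 633 probe sets passed it through the KO arrays alone and 642 through the WT arrays alone. With 2 arrays against 2, an exact permutation test cannot go below p = 0.333, so none is given.

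Genes come from the platform's annotation: 20380 probe sets name 1 gene, 691 several and 1555 none. A gene is represented by that tested probe set whose mean log2 signal over the arrays is highest. Named genes are the 15 called without overlap with the largest differences in each direction, up to 6 called members with the smallest p of each list, members a list is known by, and the 6 largest differences from starved cells in each direction. Names beyond this (Fos, Dusp1, Btg2, Cxcl1, Ptgs2, Cdk8, Med16, Tagln, Acta2, Egfr, Mdm2, Phgdh, Atf4, Id3, Dcn, Vim and chromosomal neighbours among them) were chosen after their values were seen. The comparison and the 40 lists (1006 names, 891 on the array, 704 tested) were chosen with earlier results of these data known. Alternatives changed the added constant, scaling, filter, trend, block and probe set choice, or left out each array. Figures were drawn with matplotlib 3.10.9.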

Additional observations from a re-analysis of the deposited data

Results flagged for a closer look

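The results here had a KO minus WT difference after serum that differed from the one in starved cells by the limma interaction test, 415 probe sets in all. Values are the difference after serum minus the difference in starved cells, on the log2 scale.

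Among transcription factors it was 5.54 for Jun (2.50 by a second probe set), 4.38 for Atf3, 2.01 for Egr1, 1.97 for Cebpd, 1.51 for Klf4, 1.43 for Maff, 1.25 for Junb, 1.15 for Myc and 0.92 for Atf4, and -1.77 for Bhlhe40, -2.76 for Sox9 and -4.12 for Atoh8. A second Cebpd probe set did not pass, at -0.084 (adjusted p = 0.915). Among feedback and growth arrest genes it was 3.86 for Gadd45a, 3.20 for Gadd45g, 2.07 for Dusp1, 1.38 for Cdkn2b and 1.24 for Zfp36. Cdkn2b was near the floor on the KO arrays, at 43.78 and 44.08 starved and 32.02 and 42.83 after serum. Its WT arrays read 11875 and 12765 starved and 3712 and 4696 after serum. Secreted and surface proteins had 3.46 for Ccl7, 3.42 for Ccl2, 1.91 for Ptgs2, 1.15 for Efnb2 and 1.14 for Ccn2, against -0.91 for Vegfa, -1.59 for Cd14 and -1.72 for Edn1. The Id genes had -4.44 for Id2, -3.38 for Id1 and -1.76 for Id3. Of the others, Sc5d had 1.43 and Stard4 1.36, while Gm13889 had -3.90, Fam43a -3.81, Fbxo32 -3.59, Ankrd1 -1.38 and Med24 -0.84.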

How the results depend on the processing

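The count of calls after serum (7331) was 4333 with 1 probe set per gene and 4707 without suffixed probe sets, where fewer were tested, and 5343 to 7743 with an array left out. The count by the 2-fold rule (2878) was 1648 and 1907 in the same settings, 1909 with a 60th percentile filter, 4338 with no filter and 2821 to 3002 with an array left out; it was not recomputed without the trend, on the 4 arrays alone or with the block, which cannot change it. The 415 differences from starved cells were 249 with 1 probe set per gene, 250 with no filter, 240 without the trend and 124 to 525 with an array left out; the cause was not tested. Med23 stayed between -6.15 and -6.09 with an array left out, and was -6.61, -5.19 and -3.72 with an added constant of 1, of 64 and of the highest value tried. Same-numbered stimulated arrays of WT and KO showed no clear pairing, since their deviations correlated at 0.016. Over 6 pairs of groups the correlation was -0.034 to 0.228. In WT, Col1a2 kept its gap between sets 1 and 2, at 581.4 and 8871 starved and 742.9 and 9443 after serum. Cdkn2a did not, at 8939 and 11889 starved and 9559 and 4042 after serum. Pairing of starved with stimulated arrays within a genotype was not fitted and was not tested. With the replicate block, which the genotypes share, the counts were 7418 and 412 and Med23 -6.12.

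Of 245 genes, 216 kept direction and side of the threshold in every setting run. Signs turned, for genes that were not called, to 0.016 for Egr1 and 0.051 for Id2 after median centring, and after quantile normalization to -0.149 for Junb, -0.081 for Nr4a1, -0.043 for Gadd45g, -0.165 for Ccn1, -0.166 for Ccn2, 0.001 for Id2 and -0.179 for Col1a1 (called there). With an array left out, values ran from -0.077 to 0.141 for Junb, -0.108 to 0.277 for Gadd45g and -0.056 to 0.465 for Fam43a. Calls were lost in 7 settings for Acta2 and Vim, 6 for Dusp1, 5 for Sox9 and 4 for Med16, and gained in 8 for Fosb and 4 for Errfi1. Among the differences from starved cells, that of Med24 was lost in 12 settings, those of Ccn2 and Cdkn2b in 11, those of Junb and Klf4 in 8, those of Edn1 and Cd14 in 7, those of Ankrd1, Efnb2 and Gm13889 in 6, those of Atf3, Maff and Vegfa in 5, those of Ccl7 and Atf4 in 3 and that of Zfp36 in 1.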
